A study of Sus scrofa with 16 samples.

Results

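Genes of cholesterol synthesis and sterol regulation were read out in cultured interstitial cells of the pig aortic valve, which populate the leaflet and resemble fibroblasts. The members were 30 genes chosen by name: enzymes of the mevalonate and sterol pathways, regulators of the SREBP transcription factors, lipoprotein receptors, sterol carriers, efflux pumps and enzymes of fatty acid synthesis. Of these, 29 were found among 29552 named genes of the count table and 28 passed the filter on low counts and were tested. ABCG1 had 0 to 6 counts per library and was left untested, and IDI1 was not analysed here. A further 54 genes of sterol and lipid handling were listed beside the members, and genes outside both lists were not analysed here. Both lists were chosen with earlier results of these data known.

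Cells came from male and female pigs aged 5 to 6 months and were held for 48 hours on either of 2 surfaces. The surfaces were gel, a PEG-norbornene hydrogel with a modulus of about 5.8 kPa, and plastic, meaning tissue culture plastic. Each sex had 4 libraries on each surface, 16 in all, called male gel 1 to 4 and likewise for the other 3 groups. Every group had the same stated medium, Media 199 with 1% fetal bovine serum, penicillin, streptomycin and amphotericin B, an antifungal that binds sterols. What reached the cells of serum and drug on each surface was not measured here. The submitters regard cells on gel as quiescent fibroblasts and cells on plastic as myofibroblasts. Both states are cultures, with no leaflet tissue beside them.

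Animal cells build cholesterol from acetyl-CoA through mevalonate, farnesyl pyrophosphate, squalene and lanosterol. The membrane-bound factors SREBP1 and SREBP2, products of SREBF1 and SREBF2, switch on these enzymes after the escort protein SCAP carries them from the endoplasmic reticulum to the Golgi, where they are cleaved. When sterols are plentiful, INSIG1 and INSIG2 hold SCAP back, and liver X receptors, which sense oxidised sterols, switch on the efflux pumps ABCA1 and ABCG1. Lipoprotein uptake and lipid deposits in the leaflet are part of the known biology of aortic valve disease.

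Total counts ran from 16897547 in male gel 2 to 27436151 in female gel 3. Male gel 2 was also the lowest of its group of 4 for 14 of the 28 tested members and the highest for 5. The labels do not say which libraries came from the same pig, so p-values measure the spread between these libraries. All 7 markers of interstitial fibroblasts were detected in each group, with summed levels of 26525 to 32677 CPM (counts scaled to library size by the TMM method) on gel and 29583 to 37560 CPM on plastic, sums carried mostly by collagens and vimentin. Within that list 3 markers fell on plastic in both sexes: PDGFRA (-2.44, SE 0.16, and -2.38, SE 0.16), LUM (-1.62, SE 0.28, and -1.42, SE 0.28) and DCN (-1.33, SE 0.21, and -1.41, SE 0.21), each lower in 8 of 8 numbers. COL3A1 rose in both, COL1A1 rose in male cells, and both collagens lost a call under some alternatives. All 4 myofibroblast markers rose on plastic in both sexes, with the smooth muscle actin ACTA2 at log2 changes of 2.32 (SE 0.31) and 2.18 (SE 0.31). The 7 leukocyte markers summed to 5.7 to 38 CPM, with PTPRC at most 0.0351 CPM, and of the 3 tested 1 rose (LAPTM5) and 1 fell (CD14) on plastic in both sexes. Female plastic 1 held 33.7 CPM of LAPTM5 against 4.62 to 9.28 in the other female plastic libraries, and the female call was lost without it (1.16, adjusted p = 0.116), without female gel 3 (1.86, adjusted p = 0.0549) and without the 6 libraries of male 4, female 1 and female 4 (1.62, adjusted p = 0.0775). The 6 adipocyte markers summed to 1.23 to 3.03 CPM, with ADIPOQ at most 0.0423 CPM. The 13 endothelial markers summed to 156 to 287 CPM on gel and 199 to 582 CPM on plastic, sums carried mostly by ERG, PECAM1 and CDH5. ERG was at 92.8 to 252 CPM over the 16 libraries. Male gel 2 had the most ERG on gel (140 CPM) and the least CDH5 (4.97 CPM), while female plastic 1 and 4 had the most of both. VWF, KDR and CLDN5 were at most 4.17, 2.22 and 2.53 CPM. Of the 13 endothelial markers, 1 rose on plastic in male cells (ROBO4) and 2 in female cells (ROBO4 and ERG), and 0 fell. These are 7.69% and 15.4% of the list against 12.9% and 12.7% of all tested genes higher. PECAM1 was not called and was higher on plastic in 1 of 8 numbers. The male ROBO4 call was lost with limma-voom (adjusted p = 0.188) and without any male gel library or male plastic 3 or 4 (adjusted p = 0.0576 to 0.125). The female ROBO4 call was lost with limma-voom (adjusted p = 0.0639) and without the same 6 libraries (0.0596), as was that of ERG without them (0.44, adjusted p = 0.165). ERG was called in male cells with the replicate number as a block (0.44, adjusted p = 0.0377), with DESeq2 (adjusted p = 0.0388) and with limma-voom (adjusted p = 0.0477). Leaving out male gel 2 (0.56, adjusted p = 0.0136), female plastic 4 (0.43, adjusted p = 0.0166) or both (0.56, adjusted p = 0.000532) also gave a male call of ERG. The endothelial cadherin CDH5 was not called (1.35, SE 0.77, and 1.93, SE 0.78), but with the replicate number as a block it was (1.62, adjusted p = 0.00117, and 1.90, adjusted p = 0.000434). CDH5 was also called in both sexes without male gel 4 (adjusted p = 0.0336 and 0.0496) and without the same 6 libraries (adjusted p = 0.00234 and 0.0129). Without female gel 4 it was called in female cells (2.71, adjusted p = 0.0334). Because the RNA is bulk, fewer cells of a type and less RNA per cell cannot be told apart.

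The first question was how these genes differed between plastic and gel within each sex. In male cells 4 of the 28 tested members rose on plastic (VLDLR, STARD4, TM7SF2 and INSIG1) and 2 fell (ABCA1 and INSIG2). A gene is said to rise or fall where its adjusted p, over all 14530 tested genes, was under 0.05. Those 6 genes are 21.4% of the members, against 25.8% of all tested genes called in this comparison (12.9% higher and 12.9% lower). In female cells 4 members rose (STARD4, VLDLR, TM7SF2 and SC5D) and 4 fell (ABCA1, INSIG2, SCAP and SREBF1), 28.6% of the members against a background of 23.9% (12.7% higher and 11.3% lower). The share of members that changed was thus near that of all genes. The 4 largest changes in each sex were those of ABCA1, STARD4, VLDLR and TM7SF2, while 12 of the 14 tested synthesis enzymes were called in neither sex. The enzymes called were 7.14% of the 14 in male and 14.3% in female cells, against 25.8% and 23.9% of all tested genes. The gel and plastic libraries did not overlap for 6 members higher and 2 lower on plastic in male cells (background 28.9%, 14.8% higher and 14% lower). In female cells this held for 2 members higher and 4 lower (background 27.7%, 13.7% higher and 14% lower). The median log2 change of the members was 0.11 in male and -0.02 in female cells, beside -0.034 and -0.037 over all tested genes.

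**Figure D1:**
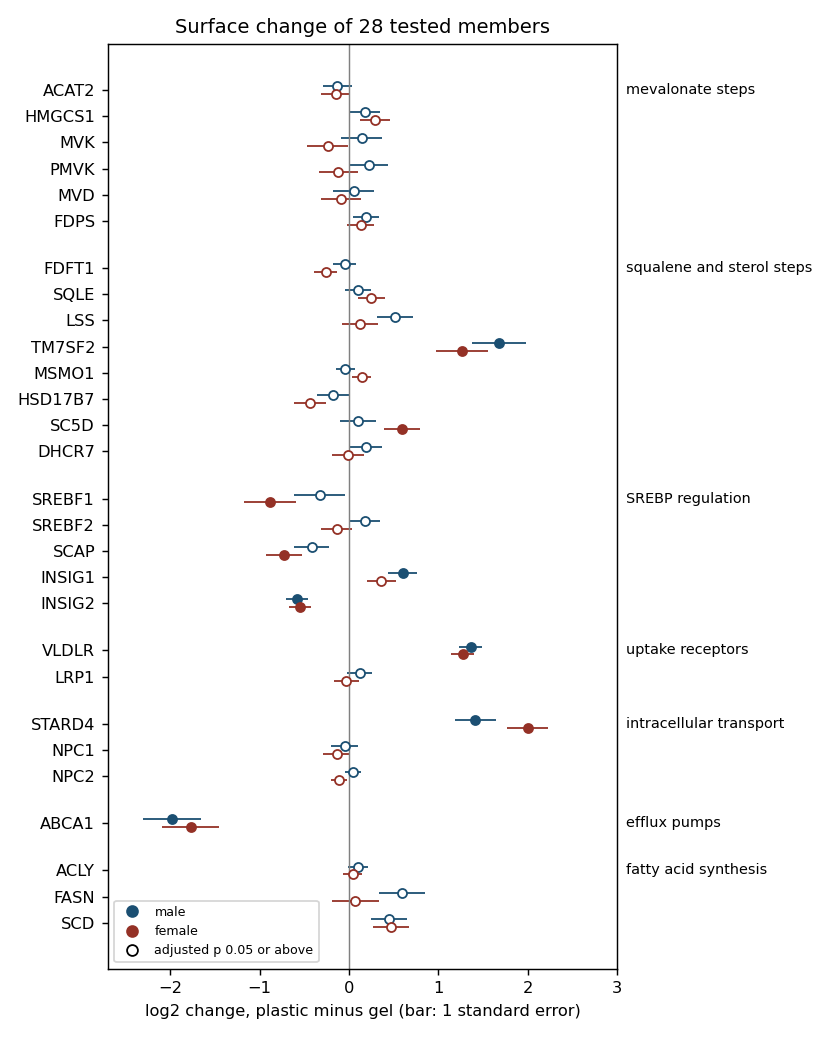
Log2 change (plastic minus gel, horizontal axis) of each of the 28 tested members, in male (blue) and female (red) cells, with 1 standard error as a bar and filled symbols where the adjusted p was under 0.05. VLDLR, STARD4 and TM7SF2 lie to the right and ABCA1 to the left in both sexes, while the mevalonate enzymes lie near 0.

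The mevalonate steps showed 0 of 6 tested enzymes called in either sex by edgeR's quasi-likelihood test (background 25.8% in male and 23.9% in female cells). The count at an unadjusted p under 0.05 was 0, and DESeq2 and limma-voom called 0 as well. HMGCS1, the HMG-CoA synthase that feeds the pathway, was at 178 to 259 CPM in male gel and 215 to 279 CPM in male plastic (log2 change 0.18, SE 0.17). Female libraries were at 158 to 286 CPM on gel and 207 to 296 CPM on plastic (0.29, SE 0.17, adjusted p = 0.247). Without female gel 4, the highest female gel library, that female change was 0.50 with an adjusted p of 0.022. Of the 16 fits that each left out a library, no other called it. Over those fits the change went down to 0.18, with adjusted p up to 0.525. ACAT2, the thiolase that makes acetoacetyl-CoA, had log2 changes of -0.13 (SE 0.16) in male and -0.15 (SE 0.16) in female cells. FDPS, which makes farnesyl pyrophosphate, ran from 78.9 to 139 CPM over the 16 libraries, with changes of 0.19 (SE 0.15) and 0.13 (SE 0.15). The mevalonate kinase MVK, the phosphomevalonate kinase PMVK and the decarboxylase MVD were low, with ranges of 6.44 to 14.5, 2.74 to 6.14 and 10.2 to 25.4 CPM. Their changes lay between -0.24 (MVK, female, SE 0.23) and 0.22 (PMVK, male, SE 0.22), so shifts of this size were within the error. PMVK overlaps the end of KCNN3 in the annotation, and ACAT2 that of TCP1.

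Of the 8 squalene and sterol enzymes, 1 rose in male and 2 rose in female cells, and 0 fell in either, 12.5% and 25% of them against 12.9% and 12.7% of all tested genes higher. TM7SF2, a sterol reductase that acts after lanosterol (chromosome 2, 7076778 to 7081502, Sscrofa11.1), was at 9.36, 4.91, 9.05 and 8.97 CPM in male gel 1 to 4 and at 22.4, 24.3, 29.9 and 27.6 CPM in male plastic. All male plastic libraries lay above all male gel libraries, a log2 change of 1.68 (SE 0.30, adjusted p = 0.000523). In female cells TM7SF2 was at 4.61, 9.72, 8.49 and 10.3 CPM on gel and at 10.3, 23.5, 28.8 and 16.7 CPM on plastic. Female plastic 1 thus lay level with the highest female gel library, and the female rise was 1.26 (SE 0.29, adjusted p = 0.00478). Set against the gel library that carries its number, each plastic library had more TM7SF2, so it was higher on plastic in 8 of 8, by 0.67 to 2.19.

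SC5D, the desaturase that acts late in the pathway (chromosome 9, 48357115 to 48372391), was at 32.7, 41.8, 49.2 and 58 CPM in female gel and 51.2, 56.4, 66.3 and 99.1 CPM in female plastic. The female groups overlapped, and the rise of 0.59 (SE 0.20) passed narrowly, at an adjusted p of 0.0467. That call was lost in 11 of the 16 fits that each left out a library, with the smallest change without female plastic 4 (0.35, adjusted p = 0.199). The other 10 libraries whose loss ended the call were all except male gel 1 and 2, female gel 4 and female plastic 1 and 2. In male cells SC5D was at 48.1, 73.5, 52.8 and 57.1 CPM on gel and 58.7, 54.7, 73.6 and 61.5 CPM on plastic (0.10, SE 0.20). A long noncoding RNA gene, LOC106504896, overlaps SC5D by 1485 bases, and no strand setting was stated for the counting.

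LSS, the lanosterol synthase, was not called, yet its male groups did not overlap: 105, 58.1, 102 and 115 CPM on gel against 121, 126, 154 and 142 CPM on plastic (0.51, SE 0.20, adjusted p = 0.07). With the replicate number as a block the male change of LSS was 0.55 (adjusted p = 0.038), and it was called by DESeq2 (0.53, adjusted p = 0.04). It passed without male gel 4 (0.62, adjusted p = 0.0477) or female gel 4 (0.51, adjusted p = 0.0396). These were the only 2 calls in 16 fits that each left out a library. Over those fits the male change ran from 0.34 to 0.62, with adjusted p up to 0.17. The female change of LSS was 0.12 (SE 0.20). FDFT1, which makes squalene, and SQLE, which oxidises it, had female changes of -0.26 (SE 0.13) and 0.25 (SE 0.15), opposite in sign and neither called. MSMO1 (a sterol methyl oxidase, 94 to 135 CPM over all libraries) and DHCR7 (the last reductase, 13.8 to 33.4 CPM) had log2 changes of at most 0.19 in size in either sex and were not called. HSD17B7, a sterol ketoreductase, was at -0.44 (SE 0.18, adjusted p = 0.0929) in female cells and, of the alternatives run, passed without male gel 2 (adjusted p = 0.0373), a library that enters through the shared estimate of the spread.

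Of the 5 SREBP regulators, 1 rose and 1 fell in male cells (background 25.8% called), and 3 fell in female cells (background 11.3% lower). INSIG1, which retains SCAP and is itself switched on by SREBPs (chromosome 18, 2885494 to 2898758), was at 68.4, 71, 77.5 and 101 CPM in male gel and 114, 112, 135 and 122 CPM in male plastic. The male groups did not overlap, and INSIG1 rose by 0.60 (SE 0.16, adjusted p = 0.0129). Female libraries were at 63.2, 74.1, 74.8 and 115 CPM on gel and 94.5, 105, 120 and 102 CPM on plastic. Female gel 4 lay within the plastic range, and the female change of 0.36 (SE 0.16) was not called (adjusted p = 0.123), although without female gel 4 it was 0.57 (adjusted p = 0.00721). No other fit that left out 1 library called the female change (adjusted p up to 0.305). Across numbers, INSIG1 was higher on plastic in 7 of 8.

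INSIG2, the second retention protein and not known as an SREBP target, went the other way. It was at 23.3, 19.7, 20.2 and 19.8 CPM in male gel and 12.7, 15.4, 13.2 and 14.2 CPM in male plastic, a fall with no overlap (-0.58, SE 0.12, adjusted p = 0.00153). Female gel libraries were at 17.8, 19.8, 20.2 and 21.1 CPM and female plastic libraries at 12.1, 14.5, 15.7 and 11.5 CPM (-0.55, SE 0.12, adjusted p = 0.00229). INSIG2 was lower on plastic in every one of the 8 numbers. The annotation gives the symbol to a gene on chromosome 15 (23676684 to 23699591) and to a pseudogene on chromosome 7 (52466406 to 52467387) inside PDE8A, and the single row of the table may hold reads of both.

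SCAP, the escort of the SREBPs (chromosome 13, 30253262 to 30320625), varied little in female gel, at 66.1, 66.2, 68.6 and 69.3 CPM, and stood at 49.7, 39.8, 42.3 and 30.7 CPM in female plastic. It fell without overlap in female cells (-0.73, SE 0.20, adjusted p = 0.0123). Male gel libraries were at 65.6, 30.3, 68.2 and 63 CPM and male plastic libraries at 36.1, 48, 44.1 and 41.3 CPM. Male gel 2 lay below every male plastic library, and the male change of -0.42 (SE 0.20) was not called (adjusted p = 0.128). Without male gel 2 it was -0.63 (adjusted p = 0.00177), the only male call among fits that left out 1 library (adjusted p up to 0.283). SCAP was lower on plastic in the other 7 of the 8 numbers.

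SREBF1, which encodes the SREBP of fatty acid synthesis (chromosome 12, 60733967 to 60750951), was at 54, 45.4, 47.5 and 89.6 CPM in female gel and 40.2, 31.4, 30.2 and 27 CPM in female plastic. The female groups did not overlap and the fall was -0.88 (SE 0.29, adjusted p = 0.0357). The call was lost without female gel 4 (-0.60, adjusted p = 0.143), female gel 1 (adjusted p = 0.051) or female plastic 2, 3 or 4 (0.0746, 0.0796 and 0.0935), and by limma-voom (adjusted p = 0.0506). In male cells SREBF1 was at 54.7, 20.8, 52.7 and 67.7 CPM on gel and 31, 33.8, 42.8 and 48.6 CPM on plastic (-0.33, SE 0.29, adjusted p = 0.433), again with male gel 2 the lowest of all. SREBF2, which encodes the SREBP of the sterol enzymes (chromosome 5, 6719484 to 6784724), was at 228, 127, 248 and 244 CPM in male gel and 218, 243, 262 and 238 CPM in male plastic (0.18, SE 0.17). Female gel libraries were at 193, 230, 236 and 275 CPM and female plastic libraries at 191, 229, 240 and 187 CPM (-0.14, SE 0.17). SREBF2 mRNA was not called in either sex, and its groups overlapped in both.

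**Figure D2:**
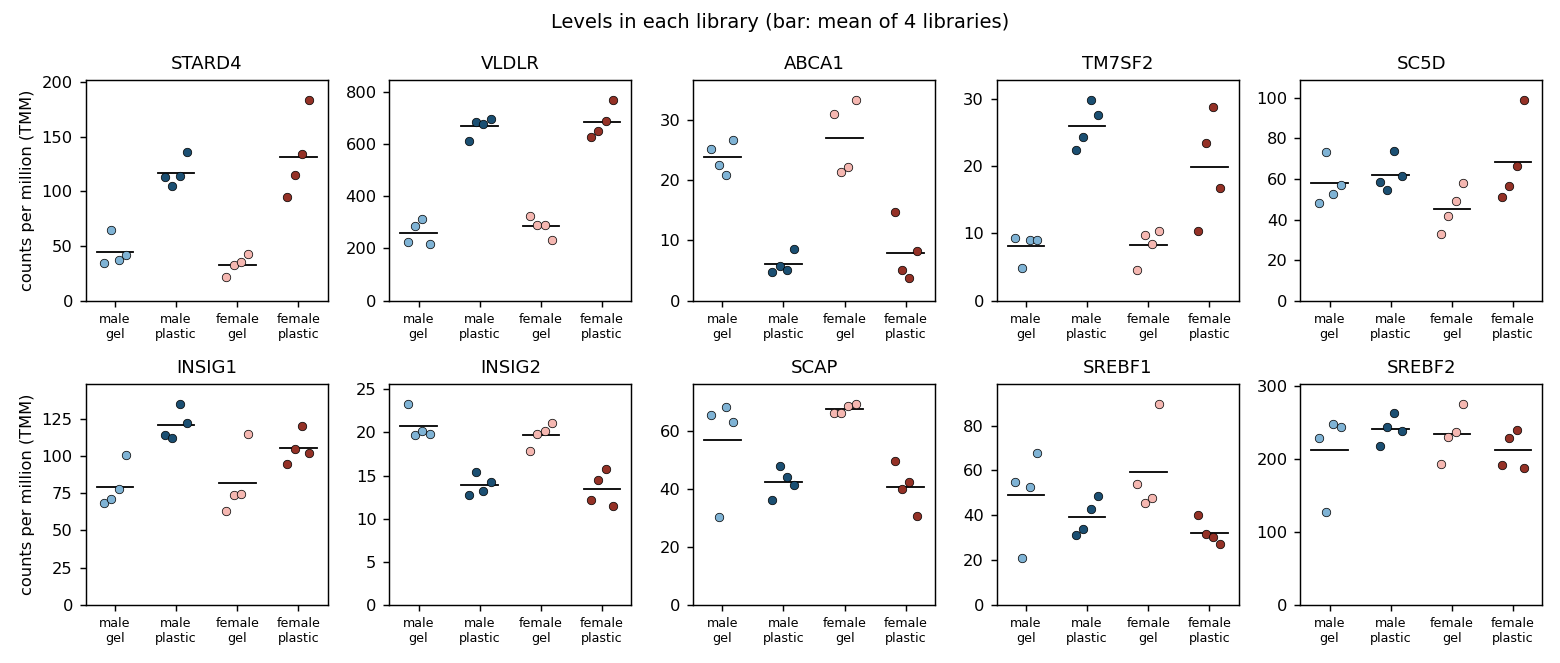
CPM (vertical axis, from 0) of 10 members in each of the 16 libraries, by group and from replicate 1 to 4 left to right within a group, with the group mean as a bar. STARD4, VLDLR and INSIG2 separate gel from plastic in both sexes, and male gel 2 lies low for SCAP, SREBF1, SREBF2 and TM7SF2.

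The 2 uptake receptors differed. VLDLR, an endocytic receptor for triglyceride-rich lipoproteins (chromosome 1, 219178501 to 219210332), was at 224, 287, 315 and 219 CPM in male gel and 614, 686, 677 and 697 CPM in male plastic. Female gel libraries were at 325, 292, 289 and 233 CPM and female plastic libraries at 629, 653, 690 and 771 CPM. Every plastic library lay above every gel library, and the rises were 1.36 (SE 0.13, adjusted p = 1.66e-06) in male and 1.27 (SE 0.13, adjusted p = 3.28e-06) in female cells. Among the numbers, VLDLR was higher on plastic in 8 of 8, by 0.95 to 1.72. LRP1, a large receptor that takes up lipoproteins and many other ligands, ran from 2001 to 3026 CPM on gel and from 2203 to 3093 CPM on plastic. Its changes were 0.12 (SE 0.14) in male and -0.03 (SE 0.14) in female cells, and it was higher on plastic in 4 of the 8 numbers.

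Of the 3 intracellular carriers only STARD4 was called, 33.3% of them in each sex against 25.8% and 23.9% of all tested genes. STARD4, a soluble carrier that moves cholesterol between membranes and is a known SREBP target (chromosome 2, 116235821 to 116257143), was at 34, 64.2, 37 and 41.6 CPM in male gel and 113, 105, 114 and 136 CPM in male plastic. In female cells it was at 22, 32.8, 34.9 and 42.4 CPM on gel and 94.6, 115, 134 and 184 CPM on plastic. No gel library reached the lowest plastic library, and STARD4 rose by 1.41 (SE 0.23, adjusted p = 0.000285) in male and by 2 on the log2 scale (SE 0.23, adjusted p = 1.37e-05) in female cells, 2.65-fold and 4-fold. The smallest difference by number, 0.71, was that of male 2, whose gel library was the highest of the 8, and the other 7 were between 1.61 and 2.1. The lysosomal cholesterol exporters NPC1 and NPC2 ran from 38.9 to 71.3 and from 94.6 to 125 CPM over all libraries. The log2 change of NPC1 was -0.05 (SE 0.15) in male and -0.14 (SE 0.15) in female cells, and that of NPC2 was 0.04 (SE 0.09) and -0.11 (SE 0.09).

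ABCA1, the pump that loads cholesterol and phospholipid onto apolipoproteins (chromosome 1, 246144277 to 246278492), had the deepest fall of all members in both sexes. It was at 25.2, 22.5, 20.9 and 26.6 CPM in male gel and 4.74, 5.77, 5.1 and 8.49 CPM in male plastic. Female libraries were at 31, 21.4, 22.2 and 33.3 CPM on gel and 14.7, 5.1, 3.7 and 8.23 CPM on plastic. The groups did not overlap in either sex, and ABCA1 fell by 1.98 on the log2 scale (SE 0.32, adjusted p = 0.000285) in male and by 1.77 (SE 0.32, adjusted p = 0.000681) in female cells. Female plastic 1 was the highest plastic library for ABCA1 and also for CDH5, at 174 CPM. Male plastic 4 and female plastic 4, next for ABCA1, were at 87.9 and 88.8 CPM of CDH5, and the other 5 plastic libraries at 21 to 42.3 CPM. Without the 6 libraries of male 4, female 1 and female 4, the numbers with the most CDH5 on plastic, 2 libraries remain in each female group. The changes of ABCA1 were then -2.12 (adjusted p = 9.48e-06) and -2.30 (adjusted p = 4.18e-05). CDH5 was still higher on plastic in that fit and was called (1.87, adjusted p = 0.00234, and 1.81, adjusted p = 0.0129), so the fit does not set its difference between surfaces aside. The part of endothelial cells in the fall of ABCA1 was not tested. ABCG1, a pump for lipoprotein acceptors, had 5 counts in all of male gel, 10 in male plastic, 13 in female gel and 5 in female plastic, too few for a comparison at this depth.

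The fatty acid enzymes had 0 of 3 called by edgeR in either sex (background 25.8% in male and 23.9% in female cells). Of these enzymes, 2 had an unadjusted p under 0.05 in male and 1 in female cells. DESeq2 and limma-voom also called 0 of the 3. SCD, the stearoyl-CoA desaturase, was at 184, 174, 187 and 232 CPM in male gel and 243, 232, 323 and 263 CPM in male plastic (0.45, SE 0.20, adjusted p = 0.104). For female cells SCD stood at 123, 179, 173 and 280 CPM on gel and 212, 250, 273 and 308 CPM on plastic (0.47, SE 0.20, adjusted p = 0.0964). SCD was higher on plastic in 8 of 8 numbers, by 0.14 to 0.79, and with the replicate number as a block it was called in male (0.45, adjusted p = 0.0162) and female cells (0.52, adjusted p = 0.00774). It was also called in both without female gel 4 (adjusted p = 0.0385 in male, and 0.72 with 0.00549 in female cells). Of the 16 fits that each left out a library, no other called SCD. Its changes in those fits ran from 0.34 to 0.54 in male and 0.31 to 0.72 in female cells, with adjusted p up to 0.273 and 0.251. FASN, the fatty acid synthase, had male gel values of 256, 103, 273 and 314 CPM against 306, 318, 419 and 378 CPM on plastic (0.59, SE 0.26, adjusted p = 0.112). In female cells it was at 235, 255, 248 and 396 CPM on gel and 310, 313, 346 and 222 CPM on plastic (0.07, SE 0.26), with number 4 opposite to the other 3. ACLY, which makes cytosolic acetyl-CoA from citrate, had log2 changes of 0.10 (SE 0.11) and 0.04 (SE 0.11). The adipocyte marker PLIN1 was at most 0.281 CPM.

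The members also varied between libraries of 1 group. Female gel 4 was the highest of the 4 female gel libraries for 24 of the 28 tested members, and female gel 1 was the lowest for 21. Over the 14 tested synthesis enzymes, female gel 4 was the highest of all 8 gel libraries for 10, and their summed level was 1309 CPM there against 801 in female gel 1 and 892 to 1146 CPM in the other 6. On plastic the sum ran from 958 CPM in female plastic 1 to 1266 CPM in male plastic 3, so the ranges of the 2 surfaces overlapped. Male plastic 3 was the highest of its group for 17 of 28 members. CDH5 was at 47.1 CPM in female gel 4 and 44.8 CPM in male gel 4, against 4.97 to 20.3 CPM in the other gel libraries, of which female gel 1 had 20.3. The part of endothelial cells in these levels was not tested.

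**Figure D3:**
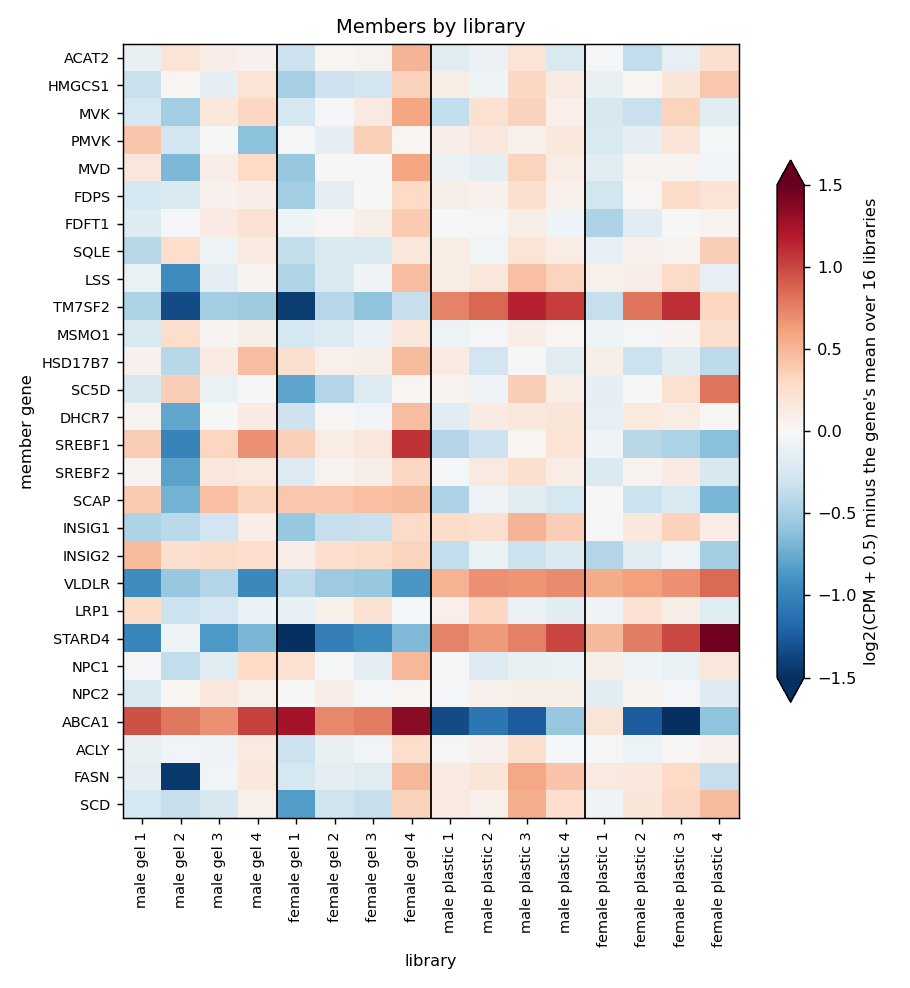
Level of each of the 28 tested members (rows) in each library (columns), as log2(CPM + 0.5) minus the gene's mean over 16 libraries (colour, red for higher). ABCA1, VLDLR and STARD4 divide gel from plastic, while female gel 4 is red and female gel 1 blue for most synthesis enzymes.

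Among the 54 other listed genes, 53 were tested. As these lists were chosen with earlier results of these data known, their shares are not independent of the values. In male cells 6 rose and 7 fell, and in female cells 5 rose and 6 fell, against the backgrounds of 25.8% and 23.9% given above. The list of liver X receptors and targets had 0 of 7 up and 3 down in both sexes (background 12.9% lower in male and 11.3% lower in female cells), with medians of -0.43 in male and -0.57 in female cells: MYLIP, PLTP and the receptor gene NR1H3. MYLIP, a ubiquitin ligase that marks lipoprotein receptors including VLDLR for degradation, was at 22.3, 19.1, 17.4 and 37.7 CPM in male gel and 5.37, 5.38, 7.94 and 4.01 CPM in male plastic. Female gel libraries had 57.2, 21.3, 23.7 and 43.8 CPM and female plastic libraries 6.66, 6.45, 6.16 and 6.54 CPM. MYLIP thus fell without overlap in both sexes (-2.09, SE 0.32, adjusted p = 0.000141, and -2.50, SE 0.32, adjusted p = 3.01e-05), as ABCA1 did. PLTP, the phospholipid transfer protein, fell by 0.96 (SE 0.25, adjusted p = 0.00884) in male and 1.23 (SE 0.25, adjusted p = 0.00169) in female cells. NR1H3 changed by -0.54 (SE 0.18, adjusted p = 0.0355) and -0.82 (SE 0.18, adjusted p = 0.00323), and for male cells adjusted p exceeded the threshold when any of male gel 1, 3, 4 or male plastic 2, 3, 4 was left out, at 0.0519 to 0.105. Without the 6 libraries of male 4, female 1 and female 4, PLTP (adjusted p = 0.0583 and 0.0719) and NR1H3 (0.213 and 0.0878) were not called.

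**Figure D4:**
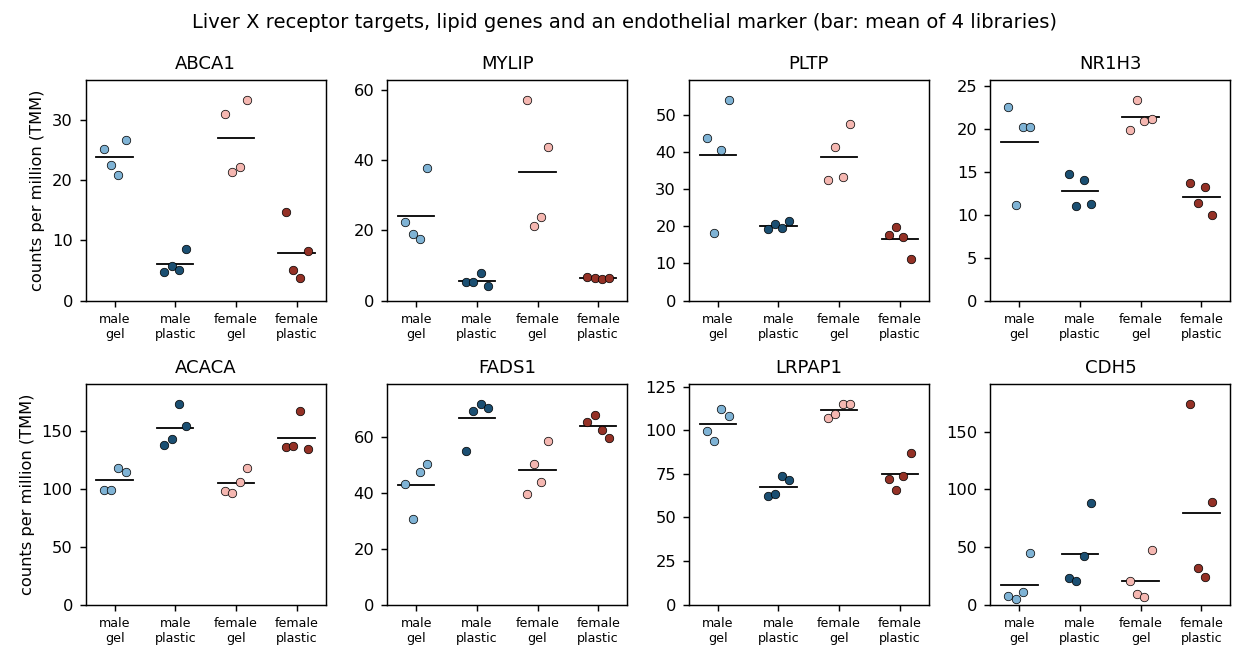
CPM (vertical axis, from 0) in each library for ABCA1 and 3 other liver X receptor genes (MYLIP, PLTP, NR1H3), 2 lipid synthesis genes, the receptor chaperone LRPAP1 and the endothelial marker CDH5, with group means as bars. ABCA1 and MYLIP are low in all 8 plastic libraries, whereas CDH5 spreads from 21 to 174 CPM on plastic.

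Of 13 other SREBP targets and lipid synthesis genes, 4 rose in male and 2 in female cells and 0 fell. These are 30.8% and 15.4% of the list, against 12.9% and 12.7% of all tested genes higher, so the female share was near the background. ACACA, the acetyl-CoA carboxylase that commits carbon to fatty acids, rose from 107 ± 10 to 152 ± 15.5 CPM (mean ± SD, n = 4) in male cells (0.50, SE 0.11, adjusted p = 0.00218). In female cells it rose from 105 ± 9.88 to 144 ± 15.8 CPM (0.45, SE 0.11, adjusted p = 0.00466). FADS1, a fatty acid desaturase, rose in male cells (0.64, SE 0.15, adjusted p = 0.00445). Its female change of 0.41 (SE 0.15) narrowly missed (adjusted p = 0.0549) and passed with the replicate block (0.42, adjusted p = 0.0441), with DESeq2, limma-voom or RLE factors, and without male gel 2 (adjusted p = 0.0147) or female gel 4 (0.51, adjusted p = 0.0252). Among 8 tested genes of SREBP processing and sterol sensing, 2 fell and 0 rose in both sexes, 25% of the list. Of all tested genes, 12.9% were lower in male and 11.3% in female cells. The 2 were TRIB1, a pseudokinase (-0.98, SE 0.14, and -0.57, SE 0.14), and MBTPS1, the Golgi protease that first cuts SREBPs (-0.26, SE 0.08, and -0.36, SE 0.08). The male call of MBTPS1 was lost with the replicate block (-0.26, adjusted p = 0.0596) and without male gel 1, 3 or 4 or any male plastic library (adjusted p = 0.0524 to 0.0841). It was also lost without the filter (adjusted p = 0.0732) and without the 6 libraries of male 4, female 1 and female 4 (-0.21, adjusted p = 0.165), which ended the female call too (-0.35, adjusted p = 0.0994). Of 18 sterol transport and storage genes, 2 rose and 2 fell in male cells, and 2 rose and 1 fell in female cells. These are 22.2% and 16.7% of the list, against 25.8% and 23.9% of all tested genes called. CAV1, the coat protein of caveolae, rose by 0.59 (SE 0.14) and 0.90 (SE 0.14). LRPAP1, a chaperone of lipoprotein receptors, fell by 0.62 (SE 0.10, adjusted p = 0.000184) in male and 0.58 (SE 0.10, adjusted p = 0.000331) in female cells. LRPAP1 was lower on plastic in 8 of 8 numbers. In the isoprenoid branch, 0 of 7 genes were called in male and 1 in female cells (background 25.8% and 23.9% called). That gene was COQ2, a ubiquinone synthesis enzyme (0.27, SE 0.10, adjusted p = 0.0492). The COQ2 call was lost with the replicate block (0.28, adjusted p = 0.0744), without the filter (adjusted p = 0.11), without those 6 libraries (0.33, adjusted p = 0.187) and without any 1 of 12 libraries, and kept without female plastic 4, female gel 3, male plastic 1 or male gel 2.

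The second question was whether male and female cells differed. For the members, 0 of 28 were called by edgeR between the sexes on gel (background 0.103%, 0.00688% higher and 0.0964% lower in female cells), 0 on plastic (background 0.124%, 0.0275% higher and 0.0964% lower) and 0 for the difference of the surface changes (background 0%). The count at an unadjusted p under 0.05 was 0 in each, and DESeq2 and limma-voom called 0 too. With the replicate number as a block, 2 members had an unadjusted p under 0.05 for the difference of changes and 0 were called. The smallest unadjusted p for that difference was that of STARD4, 0.59 higher in female cells (SE 0.32, adjusted p = 0.767), followed by SC5D at 0.48 (SE 0.29). LSS was at -0.39 (SE 0.28), FASN at -0.52 (SE 0.37) and SREBF1 at -0.55 (SE 0.40). These standard errors leave room for differences of that size, so a call in 1 sex and not the other, as for INSIG1, SCAP, SREBF1 and SC5D, does not show that the sexes differed. On gel and on plastic, 0 of the 28 members had male and female libraries without overlap, where 2.03% (0.895% higher and 1.14% lower) and 2.85% (1.27% higher and 1.58% lower) of all tested genes did.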

How the data were processed

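The authors deposited a table of unnormalized read counts, 1 column for each of 16 polyA RNA libraries (KAPA mRNA HyperPrep, per the labels' protocols). Per the submitters' processing notes, FastQC 0.11.5, Trimmomatic 0.36, HISAT2 2.1.0, SAMtools 1.3.1, featureCounts and the build Sscrofa11.1 were used; versions and strand settings beyond these are not given in the sources used here. Of 29576 rows, 24 with numbers as names (0.169% of counts) were left out. Gene positions came from RefSeq on that build.

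edgeR 4.0.16 (R 4.3.3) fitted 4 group means to 14530 genes passing filterByExpr, with TMM scaling and 12 residual degrees of freedom. The quasi-likelihood test was used with Benjamini-Hochberg adjusted p under 0.05 as the call. A standard error is the log2 change divided by the root of F. Levels are not comparable between genes, as no transcript lengths were used. The fit was tested on simulated data. Alternatives were RLE factors, DESeq2 1.42.0, limma-voom (limma 3.58.1), no filter on low counts, a filter at 1 CPM in 4 libraries, a replicate block, leaving out each library, and leaving out 2 or 6 libraries. Figures used matplotlib 3.10.9 in Python 3.11.15.

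The members and lists were chosen with earlier results of these data known. Values in every library are given for members called in any comparison and for SREBF1, SREBF2, SCAP and INSIG1 whatever their result. LSS, SCD and FASN were added after their values were seen. From the other lists and the markers the rule allows up to 2 genes per direction and list by adjusted p, of which the text gives a part, with CDH5. No library was a copy of another: chi-square per degree of freedom was 10.08 or more over 24 pairs within groups. Numbers were taken as pairs because deviations from group means correlated by 0.13 to 0.49 in each of 8 same-number pairs, although the labels do not state a shared animal.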

Additional observations from a re-analysis of the deposited data

Results flagged for a closer look

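Of 112 sets of 4 libraries (28 tested members in 4 groups), 7 held a library far from the other 3, and chance gives about 1 in 20. Male gel 2, the library of lowest depth, was the low one in 4: TM7SF2 at 4.91 CPM (others 8.97 to 9.36), DHCR7 at 13.8 (24.3 to 26.2), SREBF2 at 127 (228 to 248) and SCAP at 30.3 (63 to 68.2). FASN was at 396 CPM in female gel 4 against 235 to 255 in the other female gel libraries. INSIG2 was at 23.3 CPM in male gel 1 (others 19.7 to 20.2), and FDPS at 134 CPM in male plastic 3 (others 118 to 120).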

How the results depend on the processing

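The number of members called stayed within 1.5 times of that reported under every alternative run, in 5 comparisons, except that the replicate block was run for 3 only: female against male on gel and on plastic were not fitted with it, since each block holds libraries of 1 sex. With the replicate number as a block, 8 members were called in male and 9 in female cells (6 and 8 without it): SCD in both and LSS in male cells were added, and no other call of a member changed. Of all 14530 tested genes, 4319 were called in male and 4011 in female cells with that block, and 3748 and 3476 without it. VLDLR, STARD4, ABCA1 and TM7SF2 kept their direction and call in both sexes under each alternative, including each left-out library. Without male gel 2 and female plastic 4, 7 were called in each sex, with SCAP added in male cells (-0.63, adjusted p = 0.000193) and SC5D lost (0.35, adjusted p = 0.123). Without the 6 libraries of male 4, female 1 and female 4, which leaves 2 libraries in each female group, 4 female calls were lost: INSIG2 (-0.39, adjusted p = 0.146), SC5D (0.44, 0.221), SREBF1 (-0.58, 0.358) and SCAP (-0.70, 0.181). INSIG1 (0.61, adjusted p = 0.012) and SCD (0.59, 0.0295) were then called in female cells, and SCD in male cells (0.56, 0.00968). SC5D was lost without the filter (0.58, adjusted p = 0.0517). Whether depth limits the changes of low genes such as PMVK was not tested.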
